A study of Saccharomyces cerevisiae with 9 samples.

Results

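The leaders of genes for nucleolar ribosome assembly factors were read from a designed RNA pool that holds 5′ leaders of Saccharomyces cerevisiae. Members were the wild-type RNAs of 42 Watson-strand genes, taken by their locus tags, and the choice used no measured value. The choice was made with earlier results of these data known, as were the role and comparison lists below. Of the 42 genes, 38 had at least 1 complete wild-type RNA, and together they supplied 72 of the 4383 complete wild-type RNAs and 38 of the 2370 genes. Of these 2370 genes, 2251 were on the Watson strand. The deposited table ended after 1048575 lines, so "all genes" below means the genes found in it. No wild-type RNA of UTP20, UTP22, TSR1 or NAN1 was among the RNAs analysed. The pool was transcribed in vitro with T7 RNA polymerase, so it carries no cell state, protein or native 3′ end. The series has 9 libraries, 3 replicates of each of 3 conditions, and probes structure with dimethyl sulphate (DMS), a reagent that methylates unpaired A and C. In the first group the RNA was heated at 95 °C for 2 min and then given DMS. The other groups held RNA that was refolded after heating and kept for 2 min at 30 °C, with DMS in one group and without it in the other. The value columns of the table carry a replicate number and no condition, so they were not used, and DMS reactivity and depth per library were not analysed here. The values below describe designed sequences and structures predicted from them, so they have no replicate error, and comparisons with all genes are descriptions with no test.

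Ribosome assembly starts in the nucleolus, where RNA polymerase I makes a long precursor RNA that is folded, modified and cut by a large set of proteins and small nucleolar RNPs. The small-subunit processome forms on the 5′ part of that precursor, and a separate set of factors builds the large subunit and escorts it to the cytoplasm. In yeast the genes of these factors are known to be transcribed together, as a regulon that follows growth and nutrient signals. A leader is the part of an mRNA before the start codon, which the scanning small ribosomal subunit has to cross. Its length, its folding and the bases around the start codon are known to bear on how often the start codon is used.

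The start codon windows below carry the sequence features described in the next paragraphs. Each runs 5′ to 3′ in the DNA letters of the pool table, set here in lower case with the start codon in capitals, the last 20 leader nt before it (fewer in a shorter leader) and 6 coding nt after it. The first 10 are the members whose second codon is GCN, the alanine codons.
UTP14 (YML093W): caaaataagctaacttaaatATGgcaaaa
NOP56 (YLR197W): agaacagtatttagtgaaagATGgctcct
DBP8 (YHR169W): catatcagaaacttttcaagATGgcagac
DBP10 (YDL031W): atatctctttaacctagaatATGgcaggc
DHR2 (YKL078W): aagagtctgcagacattatcATGgcagca
RPF1 (YHR088W): atatattgaaatactaaaaaATGgctctc
CIC1 (YHR052W): tccagactataaagtataaaATGgctaaa
EBP2 (YKL172W): tgaacaacggtatatagagaATGgctaaa
SSF1 (YHR066W): gcagacaataaaatttcaagATGgccaag
SSF2 (YDR312W): ccttagatattttggaactaATGgctaaa
The next 4 are shown for the base 3 nt before the start codon in UTP5 and IPI1, and for the shortest leader in DBP6. ROK1 is shown for a start codon predicted to be almost wholly paired in the RNA shown, with 25 leader nt, though not in its RNA with no leader nt.
UTP5 (YDR398W): cttataattgttcattaccgATGgattct
IPI1 (YHR085W): gagataaacaaagttaataaATGacaaaa
DBP6 (YNR038W): acaATGtttgca
ROK1 (YGL171W): tatcgaacaggcaagccaccATGgatatt

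A was the most frequent base 3 nt before the start codon, the position at which yeast mRNAs are known to prefer A. In the longest leader of each gene it stood there in 28 of 38 members (73.7%), beside 61.3% of all 2346 genes with a base at that position. G stood there in 7 members (all genes 19.4%), among them NOP1, NOP2, NOP4 and FAL1. C stood there in UTP5 and SSF2 (all genes 7.89%) and U in IPI1 alone (all genes 11.4%). By role, A was present in 8 of 9 helicases, 8 of 11 processome proteins, 8 of 12 large-subunit factors, 2 of 4 box C/D and methylation proteins and both GTPases. Among 83 genes of cytosolic ribosomal proteins it was present in 69 (83.1%), and among 33 other assembly factors in 26 (78.8%). The members' share therefore lay between all genes and the ribosomal protein genes, but its 95% Wilson interval, 58.0 to 85.0%, held both shares. With each leader on its own the share was 69.0% in members and 62.0% in all genes.

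Further positions stood out only on inspection of 60 positions, so they were chosen after their values were seen. The base directly after the start codon was G in 23 of 38 members (60.5%; all genes 30.3%). It was G in 43 of 83 ribosomal protein genes (51.8%), in 13 of 33 other assembly factors (39.4%) and in 0 of 11 cytosolic aminoacyl-tRNA synthetase genes, which encode the enzymes that charge tRNAs. The second codon was GCN in 10 of 38 members (26.3%; all genes 8.52%) and GCN or GGN, which encodes glycine, in 15 of 38 (39.5%; all genes 14.1%). The GCN genes include the paralogues SSF1 and SSF2. The middle base of this codon was C in 18 of 38 members (47.4%; all genes 38.7%) and in 49 of 83 ribosomal protein genes (59.0%). The GGN genes were MAK5, NOP2, SPB1, NOC2 and UTP9. Large-subunit factors held 5 of the 10 GCN codons, helicases 3, and UTP14 and NOP56 the others. U was the base 6 nt upstream of the start codon in 19 of 37 members (51.4%; all genes 28.4%), and A there in 6 of 37 (16.2%), against 34.7% of all genes. In ribosomal protein genes U was at that position in 24 of 83 (28.9%) and in other assembly factors in 10 of 33 (30.3%).

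**Figure D1:**
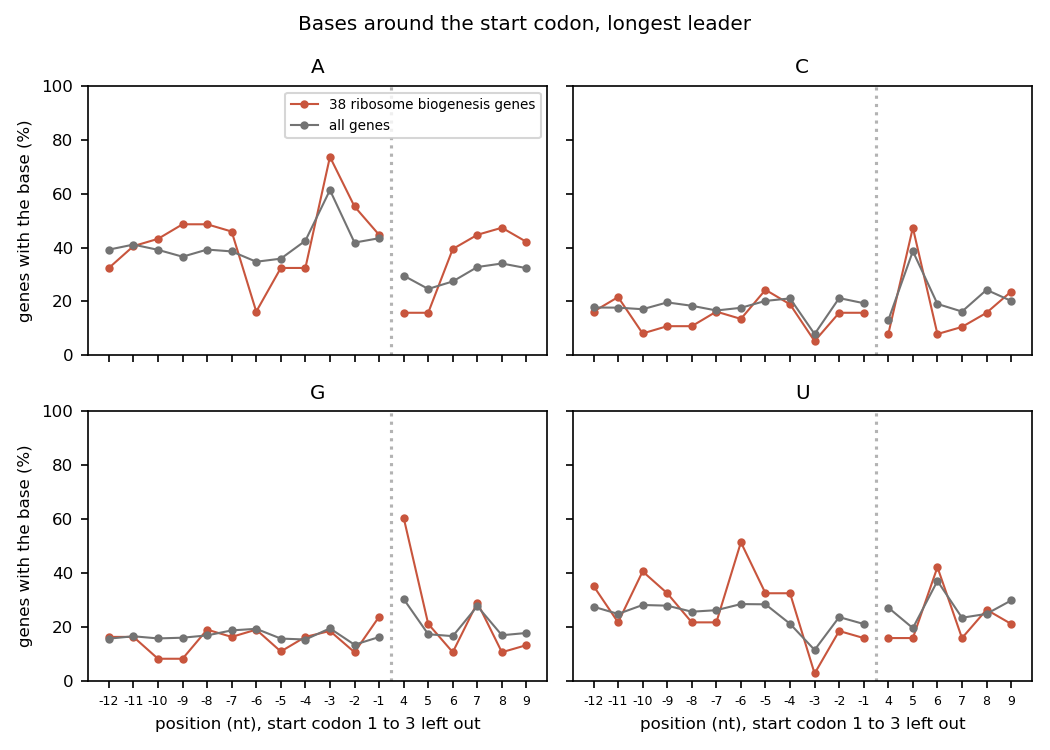
Share of genes (%) with each base at positions 12 nt before to 9 nt from the start of the start codon, in the longest leader of each gene, for the 38 ribosome biogenesis genes (red) and all genes (grey). The start codon is left out, and among the positions plotted A is most frequent 3 nt before it in both, and the red line stands at 60.5% for G right after the start codon and at 51.4% for U 6 nt before it.

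Leaders of ribosome biogenesis genes were of middling length, with few long ones. Over the leaders of each gene the mean length had a median of 36.25 nt with quartiles of 27.25 and 47 nt, beside a median of 39.5 nt and quartiles of 24.5 and 61 nt over all genes. It was below the all-gene median in 25 of 38 members (all genes 49.6%) and in the upper 25% of genes in 4 of 38 (all genes 24.8%). Those 4 were NOP1, FAL1, IMP4 and MAK5. NOP1 (YDL014W), which encodes fibrillarin, the methyltransferase of box C/D snoRNPs, had a single leader of 120 nt. FAL1 (YDR021W), which encodes a helicase needed for small-subunit RNA, had 4 leaders of 29, 51, 90 and 106 nt. IMP4 (YNL075W), a protein of the U3 snoRNP, had leaders of 43, 58 and 97 nt. At the other end DBP6, a helicase of large-subunit assembly, had a leader of 3 nt. ROK1, a helicase of small-subunit assembly, had 1 RNA with no leader nt and 1 with 25 nt. UTP14, which activates a processome helicase, had leaders of 8 and 23 nt. Ribosomal protein genes had shorter leaders, with a median of 25 nt, and other assembly factors had a median of 37 nt.

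**Figure D2:**
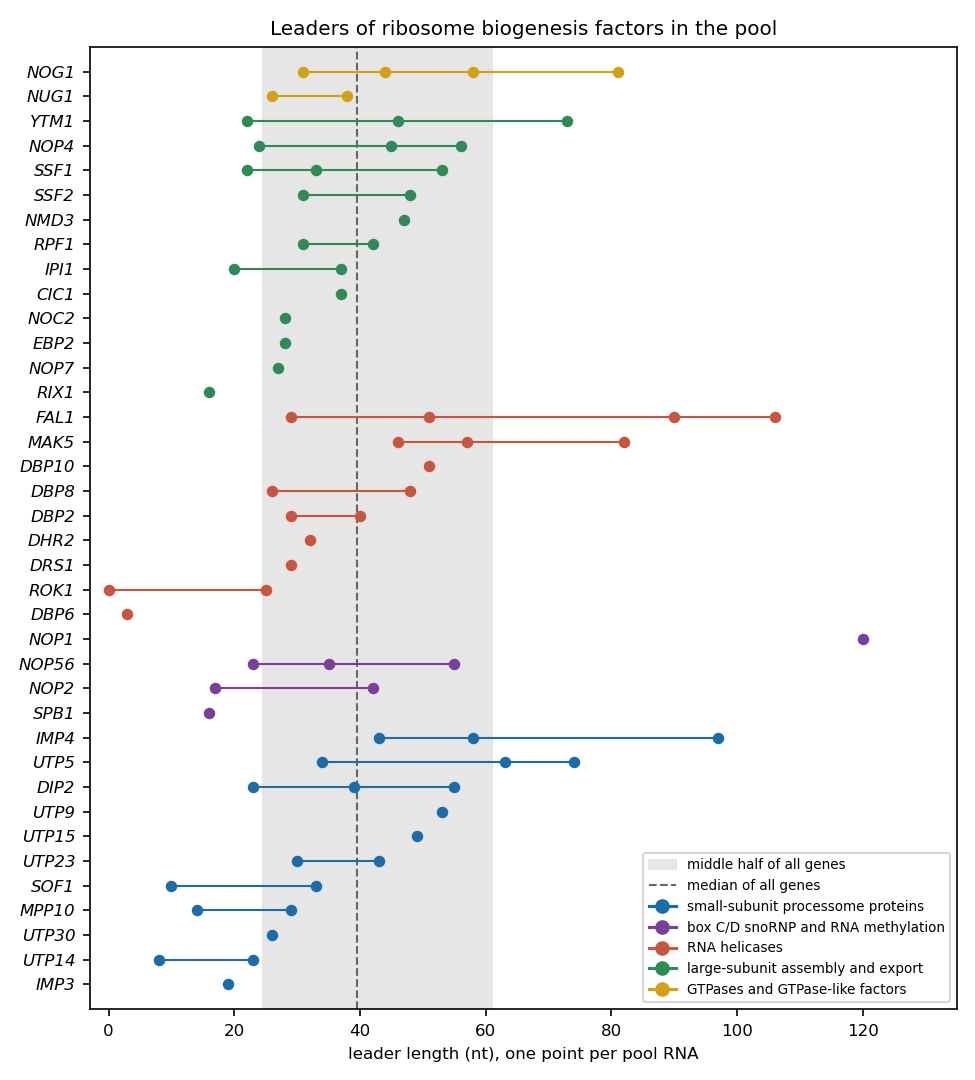
Leader length in nt of each of the 72 pool RNAs, 1 row per gene, joined by a line within a gene and coloured by role, with the median (dashed) and the middle 50% (grey band) of all genes. Most points lie inside the band, DBP6 and the shortest ROK1 RNA lie near 0, and NOP1 lies at 120 nt.

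Base composition lay close to that of all genes. A made up a median of 39.1% of the leader in the 37 members with a leader of at least 10 nt and 38.8% in all 2273 such genes. It was above the all-gene median in 19 of 37 members (all genes 50%). The median GC content was 34.5% and 35.0%, and the median U content 25% and 25.5%, each for members and for all genes. IPI1 had the most A, at 61.1%, followed by UTP14 at 56.5% and FAL1 at 53.2%. UTP30, a ribosomal-protein-like factor of early assembly, had the least, at 23.1%, followed by SSF2 at 28.1% and UTP9 at 30.2%. Large-subunit factors had a median of 43.4% A, with 9 of 12 above the all-gene median, and helicases 35.1%, with 2 of 8 above it. In ribosomal protein genes the median was 52.2%, above that of each role.

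Runs of one base and motifs were few, in counts whose 95% Wilson intervals held the share of all genes. The intervals were 0.466 to 13.5% for 8 A, and 1.46 to 17.3% for 6 A and for 5 U. For 6 U, PAC and RRPE they were 0 to 9.18%. A run of A is a known binding site of poly(A)-binding protein. A run of 8 A was present in 1 of 38 members (all genes 3.59%). That gene was FAL1, whose run of 10 A lies within the last 20 nt before the start codon, is in all 4 of its leaders and is shown here in capitals.
FAL1 A run: tacagaaacAAAAAAAAAActcattaga
At a length of 6 A, NOG1 joined FAL1 (2 of 38; all genes 11.4%). A run of 6 U was present in 0 of 38 members (all genes 5.49%), and a run of 5 U in MAK5 and UTP15 (2 of 38; all genes 12.5%). The PAC and RRPE motifs are DNA elements known from promoters of this regulon. PAC, searched as GATGAG or CTCATC with AGT codons read as ATG, was in 0 of 38 members' leaders (all genes 1.52%), and RRPE, searched as AAAATTTT, in 0 of 38 (all genes 0.549%). With RRPE relaxed to AAAATTT or AAATTTT the order turned, with 3 of 38 members (7.89%) and 3.08% of all genes. The 95% Wilson interval of the members' share, 2.72 to 20.8%, held the share of all genes. AAAATTTT is its own reverse complement, so both strands were covered. The stretch before the transcribed leader was not analysed here.

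Wild-type RNAs of the pool held AGT in place of an upstream ATG. The pool table writes such a replaced codon in lower case and the native leader bases in capitals, so a native AGT, as in several windows printed above, is not counted. Only IMP4 and YTM1 (YOR272W) carried such a codon in a leader (2 of 38, 5.26%; all genes 15%). YTM1 encodes a WD-repeat protein of the large-subunit precursor. Each of them also had a variant in the pool that kept the upstream AUG. The stretches around it are given from the leader's 5′ end, with the upstream start codon in capitals.
IMP4 upstream AUG: tatattgattgcATGaggttggacttg
YTM1 upstream AUG: ttctATGttcgcagaacca
In IMP4 the upstream AUG lay 85 nt before the start codon, in another frame, with U 3 nt before it. Its reading frame held 20 codons before a UAA that ended 22 nt before the start codon. In YTM1 it lay 69 nt before the start codon, in the same frame, also with U 3 nt before it, and its frame held 11 codons before a UAA that ended 33 nt before the start codon. Both upstream reading frames were thus closed inside the leader. The predicted energy of the whole RNA was −38.4 kcal/mol in the IMP4 variant and −40.6 kcal/mol in its wild type, and −37.8 and −37.5 kcal/mol in YTM1. The mean unpaired probability of the upstream codon was 0.501 as AUG and 0.546 as AGU in IMP4, and 0.981 and 0.630 in YTM1.

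Folding was predicted for each whole RNA of 182 nt at 30 °C. The unpaired probability of a base is 1 minus the sum of its predicted pair probabilities, so 1 means always open and 0 always paired. Its mean over the leader had a median of 0.492 in the 37 members and 0.481 in all genes, and lay above the all-gene median in 21 of 37 members (all genes 50%). It lay in the upper 25% of genes in 11 of 37 members and in the lower 25% in 6 of 37 (all genes 25% each). UTP14 had the most open leader, at 0.730, followed by NOP2, a methyltransferase of large-subunit RNA, at 0.638 and RPF1, a Brix-domain protein of large-subunit assembly, at 0.630. NOP56, a core protein of box C/D snoRNPs, had the most paired, at 0.330, followed by UTP30 at 0.359 and UTP9 at 0.377. Ribosomal protein genes had a median of 0.573 and other assembly factors 0.512.

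The medians of the large-subunit factors and the small-subunit processome proteins lay on opposite sides of the all-gene median of leader openness. The role lists were drawn up with earlier results of these data known. Helicases of both pathways were listed apart and are given in the next paragraph. Among 12 large-subunit genes the median was 0.561, and 9 lay above the all-gene median. YTM1 was at 0.604, SSF2 at 0.597, NOC2, a transport factor of the large-subunit precursor, at 0.590, RIX1 at 0.570, CIC1 at 0.552 and NOP7, the pescadillo protein, at 0.520. RIX1 (YHR197W) and IPI1 (0.611) are subunits of one complex of late large-subunit assembly. The nucleolar proteins EBP2 (0.479) and NOP4 (YPL043W; 0.460) and NMD3 (0.392), the adaptor that exports the large subunit, lay below the all-gene median. Among 11 processome genes the median was 0.434, and 3 lay above the all-gene median: UTP14, IMP3 at 0.496 and UTP5 at 0.492. UTP15 (0.422) and UTP9 (0.377) encode, with UTP5, subunits of the complex that binds the precursor first. MPP10 (0.444) and IMP4 (0.434) are partners of IMP3 in a complex of the U3 snoRNP. The WD-repeat proteins DIP2 and SOF1 were at 0.413 and 0.399, and UTP23 was at 0.443. The groups overlapped, since UTP14 was above every large-subunit gene and NMD3 was below most processome genes. Median A content was 43.4% in large-subunit genes, 39.1% in processome genes and 38.8% in all genes. Median GC content was 34.0%, 39.1% and 35.0% in the same order. The part of composition in this difference was not tested, and a fit on A content, U content and length is given further on.

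The helicases are RNA-unwinding enzymes of both assembly pathways. The 8 with a leader of at least 10 nt had a median of 0.474, from 0.439 in ROK1 to 0.581 in FAL1. Among those that act on the small subunit, ROK1 and DHR2 (0.465) lay below the all-gene median. DBP8 (0.483) and FAL1, of the same pathway, lay above it. Among those that act on the large subunit, DRS1 (YLL008W) was at 0.461, DBP10 at 0.490 and MAK5 (YBR142W) at 0.494. DRS1 lay below the all-gene median, and DBP10 and MAK5 above it. DBP2 (YNL112W), which also acts on mRNAs, was at 0.452. Leaders of SPB1 (YCL054W; 0.574), which encodes a methyltransferase of large-subunit RNA, and NOP1 (0.536) were above the all-gene median. So were those of the GTPases of large-subunit assembly, NUG1 (YER006W) at 0.602 and NOG1 (YPL093W) at 0.505.

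**Figure D3:**
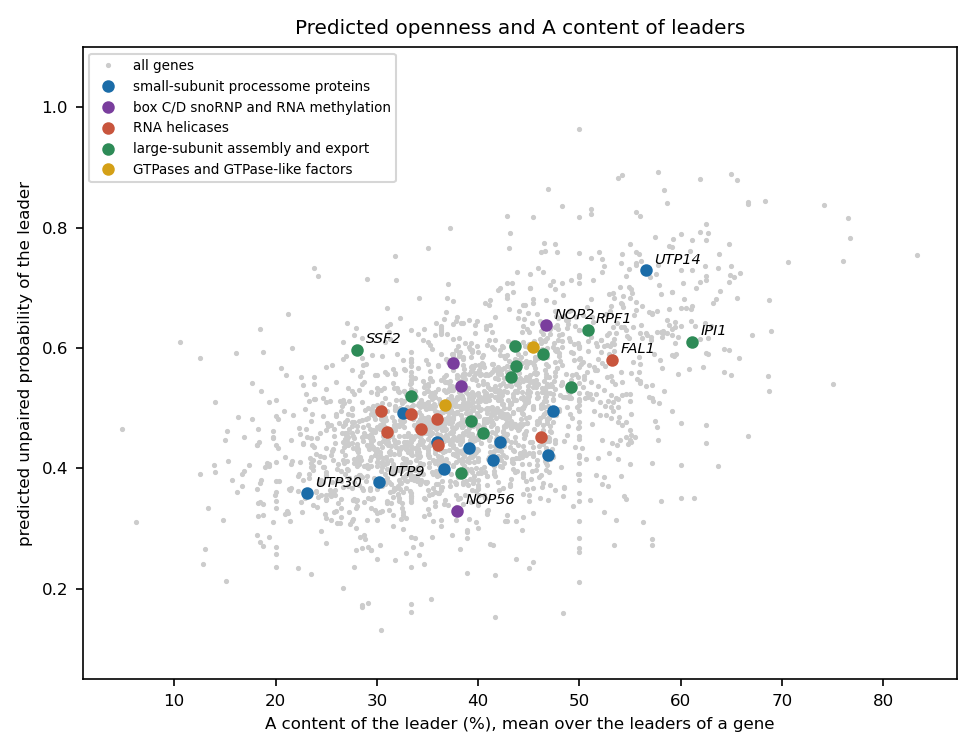
Predicted mean unpaired probability of the leader (0 to 1) against its A content (%), both averaged over the leaders of a gene, for members coloured by role and for all genes (grey). UTP14 sits highest among the members at 0.730 and NOP56 lowest at 0.330, and SSF2 sits at 0.597 with only 28.1% A.

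A linear fit of leader openness on A content, U content and leader length over 2273 genes gave a residual for each gene, the openness beyond what these predict. The members' median residual was 0.0085 and that of all genes −0.0018, with 21 of 37 members above the latter (all genes 50%). With the longest leader of each gene the order of the medians turned, with −0.0076 in members and −0.0044 in all genes. SSF2 had the highest residual, 0.171, then UTP14 with 0.146 and NOP2 with 0.111. NOP56 had the lowest, −0.153, then UTP15 with −0.111, and NMD3 and DIP2 with −0.0908 each. Residuals lay above the all-gene median in 8 of 12 large-subunit genes, 6 of 8 helicases and 2 of 11 processome genes. These role counts come from this fit alone.

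Openness around the start codon was close to that of all genes. Over the codon and 10 nt on each side, the members' median was 0.462 and that of all genes 0.476, with 16 of 37 members above the latter (all genes 50%). When the GGG and the 3′ end were left out of the folding, the members' median was 0.495 and that of all genes 0.483. YTM1 had the most open window, at 0.767, followed by IPI1 at 0.620 and NOP2 at 0.614. NMD3 had the most paired one, at 0.198, followed by ROK1 at 0.260 and UTP30 at 0.3002. Averaged over the leaders of a gene, the start codon itself had a mean unpaired probability of 0.0046 in NMD3, 0.0353 in RPF1 and 0.0377 in UTP30. In ROK1 the start codon was at 0.0014 in the RNA with 25 leader nt and at 0.560 in the RNA with none. The highest gene means were 0.843 in NOP56 and 0.827 in SOF1. NOP56 therefore combined the most paired leader with the most open start codon of the 38 genes. In the 26 members with a leader of at least 30 nt, mean openness was 0.506, 0.529 and 0.534 over the 3 windows of 10 nt before the start codon, 0.463 over the first 10 nt after it and 0.531 over the next 10 nt. All 1786 such genes had 0.501, 0.506 and 0.520 in the windows before the start codon, and 0.439 and 0.458 in those after it. Over single member genes the SD was from 0.145 to 0.215 in these windows.

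**Figure D4:**
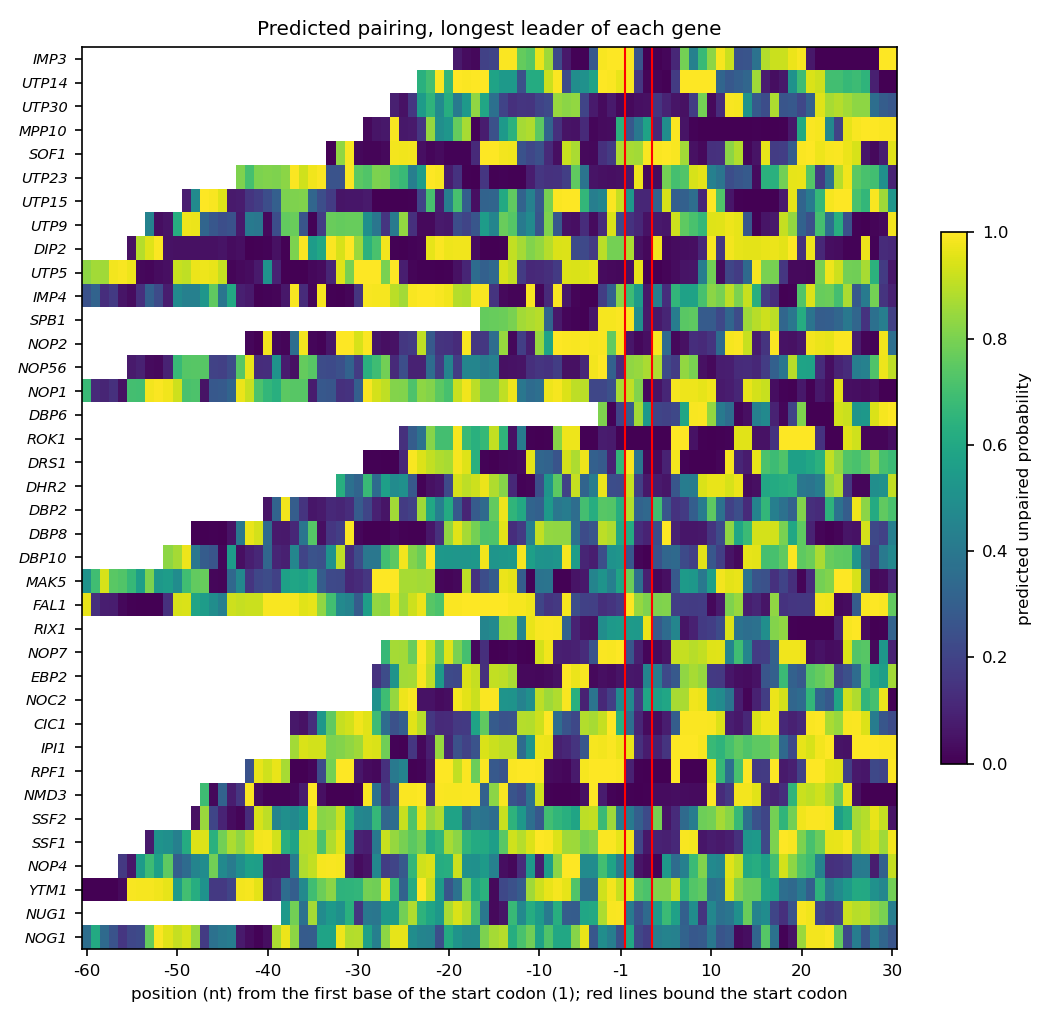
Predicted unpaired probability (colour, 0 dark to 1 bright) of each base from 60 nt before the start codon to 30 nt after its first base, in the longest leader of each member, with red lines around the start codon and white where a leader has no base. NMD3 is dark across the start codon (0.0046), and NOP56 is dark before it and bright at it (0.852 in this leader).

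In the minimum free energy structure of the longest leader, 900 leader bases of the 37 members were paired. Of these 45.6% paired within the leader, 35.9% with the start codon or coding part and 16.6% with the end of the insert or the constant 3′ stretch, which no native mRNA carries in this place. Over all genes the shares were 51.5%, 30.1% and 16.5%. A helix of at least 8 bp without a bulge involved the leader in 7 of 37 members (all genes 24.6%). NOP56 had the longest, 10 bp from 14 to 5 nt before the start codon, paired with the coding part. DIP2 had 9 bp, also paired with the coding part, and FAL1 9 bp inside the leader, from 103 to 95 nt before the start codon. MAK5, MPP10, NOG1 and UTP23 had 8 bp. All 3 bases of the start codon were unpaired in 6 of 37 members (all genes 18.1%), namely FAL1, NOG1, NOP56, RIX1, SOF1 and YTM1, and all 3 were paired in 11 of 37 (all genes 30.5%). By pair probabilities the start codon was mostly paired in the same NOG1 RNA, with a mean unpaired probability of 0.329. In the other genes named as unpaired it was from 0.682 in RIX1 to 0.906 in SOF1.

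Whole RNAs of ribosome biogenesis genes were predicted to fold less stably than those of most genes. The minimum free energy, over the same 182 nt in every RNA, had a median of −42.3 kcal/mol in members and −46.1 kcal/mol in all genes. These 182 nt hold coding part and constant ends as well as the leader. GC made up a median of 38.3% of the first 60 coding nt in 37 members and 41.7% in 2198 genes. The part of the leader in the energy was not tested. It was above the all-gene median, the less stable side, in 26 of 38 members (all genes 50%) and in the upper 25% in 19 of 38 (all genes 25%). It was above the all-gene median also in 63 of 83 ribosomal protein genes (75.9%, median −41.6 kcal/mol), 8 of 11 aminoacyl-tRNA synthetase genes (72.7%) and 19 of 33 other assembly factors (57.6%). By role the count above was 10 of 12 for large-subunit factors, 7 of 9 for helicases, 4 of 4 for box C/D and methylation proteins, 1 of 2 for GTPases and 4 of 11 for processome proteins. NUG1 had the least stable RNA, at −32.8 kcal/mol, then CIC1 at −33.9 and IPI1 at −35.2 kcal/mol. DBP6, whose leader has only 3 nt, had the most stable, at −56.4 kcal/mol, then DIP2 at −53.4 and UTP5 at −51.5 kcal/mol.

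Lysine codons were frequent at the start of the coding part, a feature chosen after the values were seen. All 38 members read through the insert without an in-frame stop codon (all genes 94.7%), so the coding stretch could be read as codons. Among the first 20 codons after the start codon the median number of AAA or AAG codons was 3 in 37 members and 1 in 2198 genes. The number was above the all-gene median in 27 of 37 members (all genes 44.4%) and was 4 or more in 12 of 37 (32.4%; all genes 8.28%). IPI1 had 8 and CIC1, a proteasome-associated factor of large-subunit assembly, 7. FAL1 and NOC2 had 6 each, and MAK5, SPB1, EBP2, NUG1, IMP3 and UTP14 had 5 each. SOF1 and UTP23 had 4. DBP6, NMD3, UTP5 and UTP9 had none, and in NOP1 the long leader left too few codons to count. At least 4 were found in 4 of 12 large-subunit genes, 4 of 11 processome genes, 2 of 9 helicases, 1 of 3 box C/D and methylation genes and 1 of 2 GTPase genes. Among the other assembly factors 8 of 31 had 4 or more (25.8%), and among aminoacyl-tRNA synthetases 0 of 11. The median number was 2 in these 31 genes, 2 in the 11 synthetase genes and 2 in the 83 ribosomal protein genes. Over the first 10 codons the median was 1 in members and 1 in all genes, so the medians differed over 20 codons and not over 10. A made up a median of 38.3% of the first 60 coding nt in members and 31.7% in all genes, and 20 of 37 members lay above the upper quartile of all genes (all genes 22.1%). IPI1 had 55% A there, CIC1 50% and UTP9 13.3%.

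**Figure D5:**
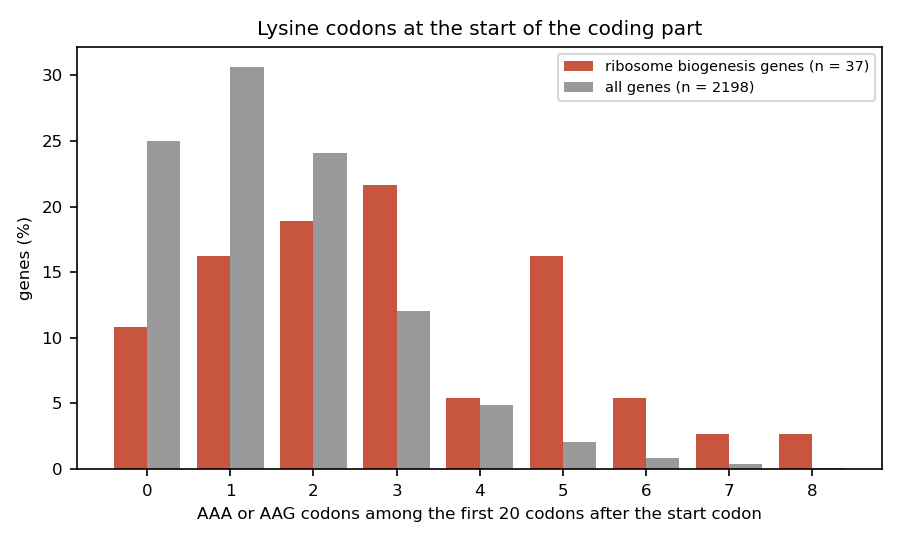
Share of genes (%) by number of lysine codons (AAA or AAG) among the first 20 codons after the start codon, for 37 ribosome biogenesis genes (red) and 2198 genes of the pool (grey). The red bars are the taller from 3 codons up, with 16.2% against 2.1% at 5 codons.

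More than 1 leader was present for 22 of 38 members (57.9%; all genes 56.8%). In the 20 members with at least 2 leaders of 10 nt or more, the shorter leader was the 3′ part of the longer one in all 20. The longest leader was a median of 28 nt longer than the shortest, and the difference in unpaired probability, longest minus shortest, had a median of −0.0370, with 7 of 20 members higher in the longest. Over all 1192 such genes the median difference was 0.0026 and 51.5% were higher. The difference in A content had a median of −2.71 percentage points, with 4 of 20 members higher in the longest leader, beside 50% of all such genes. In most of these members the longer leader thus held a smaller share of A.

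SSF1, NOP2 and FAL1 differed most between their own leaders. SSF1 had an unpaired probability of 0.396 at 22 nt, 0.458 at 33 nt and 0.751 at 53 nt, and its start codon window was at 0.294, 0.113 and 0.572 in the same order. The window was most open in the longest RNA and most paired in the middle one. NOP2 had 0.789 at 17 nt and 0.486 at 42 nt, and the mean unpaired probability of its start codon was 0.589 and 0.0417. FAL1 had 0.739 at 29 nt, and 0.522, 0.534 and 0.528 at 51, 90 and 106 nt. In UTP23 (YOR004W) the leader differed little, with 0.420 at 30 nt and 0.466 at 43 nt, while the start codon window was at 0.681 and 0.370. The end of the insert moves with leader length, since each insert holds 159 nt, and its part in these differences was not tested.

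SSF1 and SSF2 are paralogues that encode closely related Brix-domain proteins of large-subunit assembly. In the RNAs with the longest leader of each gene, 77 of the 94 coding nt compared were identical (81.9%). Of the last 48 leader nt 13 were identical (27.1%). The identity that unrelated leaders would share was not analysed here. The SSF1 leaders held 49.2% A and the SSF2 leaders 28.1%. Their mean leader openness was 0.535 and 0.597, and their start codon windows were at 0.326 and 0.563. As the windows printed above show, both genes go on with GCN and then a lysine codon, while SSF1 has A and SSF2 has C 3 nt before the start codon.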

How the data were processed

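The deposited table had 1 line for each position of a pool RNA and ended after 1048575 lines. Of its 4384 wild-type RNAs, 4383 were complete. Whether the pool holds RNAs beyond the last line was not analysed. The authors deposited a base letter per position, and the scripts read that letter and the RNA's name and nothing else. Per the submitters' processing notes STAR and SAMtools were used, in versions and roles that the notes do not state, and no genome build is given in the sources used here. The 6 value columns were not used, since no column name gives a condition, so the DMS comparison and the tests that need depth were not run. Bases were joined to sequences of 182 nt: GGG, an insert of 159 nt and a constant 3′ stretch of 20 nt. The leader ran from after GGG to the lower-case ATG, since the number in the name was 1 above the leader length in 71 of 72 member RNAs. ATGs elsewhere are written as agt in lower case in the table, and were read back as ATG for codons and motifs.

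RNAs were folded with ViennaRNA 2.7.2 at 30 °C without reactivity data. Composition and openness used leaders of at least 10 nt, averaged over the leaders of a gene; bases around the start codon and structures used the longest. The last 12 nt of the insert were left out of codon counts. Locus tags of 2308 of 2370 genes matched RefSeq R64, which gave the symbols. Scripts were tested on simulated sequences with known answers. Members, roles and the comparison lists were chosen with earlier results of these data known. The lists held 102 other assembly factors (33 present), 137 ribosomal protein genes (83 present) and 21 aminoacyl-tRNA synthetases (11 present). The genes given in full were the 3 highest and 3 lowest in length, A content, leader openness and residual, those with an AGU codon or a base run, the 3 that differed most between their own leaders, and SSF1 with SSF2; other named values were added after they were seen. Alternatives were the longest or each single leader, leaders of at least 20 nt, 37 °C, restored ATGs, a window of 5 nt, Watson-strand genes alone and a fit on GC. The promoter search was not run.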

Additional observations from a re-analysis of the deposited data

How the results depend on the processing

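The median folding energy of members was −34.7 kcal/mol at 37 °C, beside −38.2 kcal/mol for all genes, so the members stayed on the less stable side. The median leader length and leader openness kept their side of the all-gene median under each alternative run. A content moved below it with the longest leaders (38.3% against 38.6%). The median residual moved below it with the longest leader, with each leader on its own, with leaders of at least 20 nt, with the GC fit and without the constant ends; the cause was not tested. The start codon window moved above it without the constant ends (0.495 against 0.483) and with ATGs of leader and coding part restored (0.473 against 0.470), both alternatives chosen after seeing the data. Relaxing RRPE to AAAATTT or AAATTTT gave 3 of 38 members (7.89%) and 3.08% of all genes. No paired analysis was possible because the value columns carry no condition and no result comes from a test on samples. For the same reason leaving out replicates was not run, and neither was the promoter search over a longer or shorter stretch. With no depth, measured structure was not analysed here, and role groups of 2 to 12 genes limit what their medians show.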
